A study of Mus musculus with 15 samples.

Results

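The data describe 10 chemokine receptor genes, chosen by name for their part in homing to the gut and in movement out of the bone marrow (BM), in 15 RNA-seq libraries of group 2 innate lymphoid cells (ILC2s) and of their marrow precursors. The receptors were Ccr2, Ccr4, Ccr6, Ccr7, Ccr8, Ccr9, Cxcr3, Cxcr4, Cxcr5 and Cxcr6, and they were 10 of the 24089 gene symbols counted. Each was measured in every library as a deposited read count.

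Chemokine receptors are G protein-coupled receptors that steer a cell along gradients of small secreted proteins, the chemokines. Binding of a chemokine activates inhibitory G proteins, which drive adhesion and directed movement, and regulators of G protein signalling (RGS proteins) and receptor kinases end the response. CCR9 binds CCL25 of the small intestine and is a classic gut-homing receptor, CXCR4 holds cells in the marrow through CXCL12, and CCR2 is best known for letting monocytes leave the marrow. CXCR6 binds CXCL16, CCR8 binds CCL1, and CCR4 binds CCL17 and CCL22, ligands linked to tissue and type 2 responses. CCR7 and CXCR5 guide cells into lymphoid tissue, CCR6 responds to CCL20 of the epithelium, and CXCR3 answers the interferon-induced chemokines CXCL9, CXCL10 and CXCL11.

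The study asked how the TGF-β receptor acts on ILC2s and on their precursors. Gut lamina propria (LP) ILC2s were sorted as CD45+ Lin- CD127+ Sca-1+ CD25+ KLRG1+ cells from Tgfbr2f/fER-Cre+ C57BL/6 mice aged 8 to 12 weeks. The mice had received oil (WT, 4 libraries) or tamoxifen (Tgfbr2-/-, 3 libraries; 1 mg a day for 5 days). BM ILC2p, the ILC2 precursors, were sorted as CD45.2+ Lin- CD127+ α4β7+ CD25+ cells from mixed chimeras. In these, lethally irradiated CD45.1 mice received CD45.1 marrow with marrow of oil- (WT, 4 libraries) or tamoxifen-treated (Tgfbr2-/-, 4 libraries) Tgfbr2f/fER-Cre+ donors 6 weeks earlier. The donors were 8 to 12 weeks old and were treated for 5 days, those given tamoxifen with 1 mg a day. ER-Cre acts in any cell that tamoxifen reaches, so deletion was not limited to ILC2s, and the WT donors carried the floxed alleles and Cre too. Each cell type was collected in 2 experiments of its own, so cell type, tissue, host and experiment cannot be told apart. The labels do not say that libraries of a group came from separate animals, so the p-values measure the spread between these libraries. Counts on genes ranged from 12167066 to 32114265 per LP ILC2 library and from 10957021 to 35961215 per BM ILC2p library.

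The groups were checked first against the deleted gene and against markers of the sorted cells. Tgfbr2 was 149 to 261 CPM (counts scaled to a common library size) in WT LP ILC2s and 96.3 to 206 CPM in Tgfbr2-/- LP ILC2s. In BM ILC2p it was 0.712, 232, 107 and 188 CPM in the WT libraries, against 87.1, 129.8, 30.8 and 218 CPM in the Tgfbr2-/- libraries. The genotypes overlapped in both cell types and Tgfbr2 was not called in either (edgeR adjusted p = 0.898 in LP ILC2s and 0.989 in BM ILC2p). These counts cover the full transcript and the floxed exons are not given in the sources used here, so they neither check nor contradict the genotype labels, by which the libraries are named.

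The 12 ILC2 markers, with Gata3 the most abundant, summed to 8556 to 10318 CPM in WT LP ILC2s, 7169.6 to 9901 CPM in Tgfbr2-/- LP ILC2s and 6525 to 9153 CPM in WT BM ILC2p. In Tgfbr2-/- BM ILC2p they summed to 3136, 2956, 2885 and 4147 CPM, below all other libraries. There Gata3, the ILC2 transcription factor, and Il1rl1, the IL-33 receptor, were called lower than in WT BM ILC2p (log2 fold change −1.41 and −1.96, edgeR adjusted p = 0.0603 and 0.00156). With libraries scaled to the 12 ILC2 markers, which include both, neither was called (−0.16 and −0.71, edgeR adjusted p = 0.715 and 0.195). Gata3 leads the sum used for this scaling, so the scaling cannot decide whether Gata3 or Il1rl1 fell. The paper reports lower Il1rl1 in Tgfbr2-/- ILC2p by RNA-seq and RT-PCR, and unchanged Gata3 by RNA-seq. The 8 neutrophil markers ran the other way from the ILC2 marker sum. They summed to at most 3.71 CPM in any LP ILC2 library, to 787, 1553, 934 and 1468 CPM in WT BM ILC2p, and to 92689.7, 77743, 76079 and 89078 CPM in Tgfbr2-/- BM ILC2p, where S100a8, a calcium-binding protein of neutrophils, led. Of the 8, 7 were called higher in Tgfbr2-/- BM ILC2p (Camp, Ltf, Mpo, Ngp, Retnlg, S100a8 and S100a9). The sort of BM ILC2p left out cells with Gr-1, CD11b or CD11c on the surface. In these bulk libraries, fewer cells of a type and less RNA per cell cannot be told apart.

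Monocyte and macrophage markers (7 genes, Lyz2 the most abundant in the Tgfbr2-/- libraries) summed to 55.1, 57.0, 115 and 110.1 CPM in WT BM ILC2p and to 13405, 12961, 12223 and 13717 CPM in Tgfbr2-/- BM ILC2p. Cd14, Ly6c2 and Lyz2 of this list were called higher. Basophil and mast cell markers summed to 111 to 297 CPM in WT, against 1208 to 1581 CPM in Tgfbr2-/- BM ILC2p, with Prss34, Mcpt8 and Fcer1a called higher. Single libraries of BM ILC2p also lacked many abundant transcripts. Taking genes whose median over the other libraries of the group was 50 CPM or more, 13.9, 1.83, 1.15 and 0.46% were under 1 CPM in the WT libraries (experiment 1 replicates 1 and 2, then experiment 2 replicates 1 and 2, the order used throughout). In Tgfbr2-/- BM ILC2p this share was 14.8, 16.2, 3.84 and 10.8%, and in LP ILC2s at most 0.359%. The marker sums set the 4 Tgfbr2-/- BM ILC2p libraries apart from the rest.

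**Figure D1:**
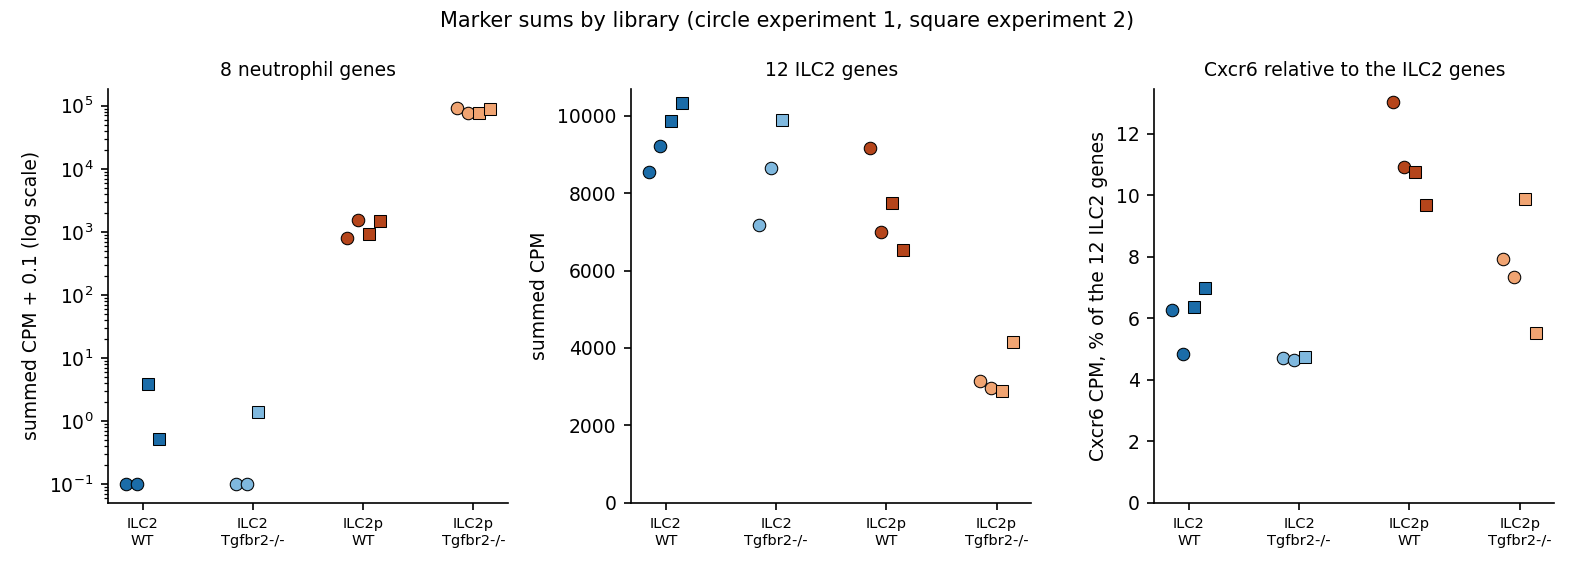
Summed CPM of the 8 neutrophil markers (log axis, 0.1 added) and of the 12 ILC2 markers, and Cxcr6 as a percentage of the summed ILC2 markers, for each of the 15 libraries by group. The neutrophil sum is between 76079 and 92689.7 CPM in Tgfbr2-/- BM ILC2p and at most 3.71 CPM in LP ILC2s.

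Levels per transcript length (RPKM, reads per kilobase of transcript, scaled to depth) allow the receptors to be ordered within a group. In WT LP ILC2s Ccr8 was the most abundant receptor of the 10, at 1079 ± 217 RPKM (SD, n = 4), above 99.6% of the genes kept for testing. Cxcr6 followed at 339.9 ± 92.4 RPKM, and the ranges of these receptors over the libraries did not overlap. Ccr4 at 56.1 ± 18.9 RPKM and Ccr9 at 43.9 ± 17.7 RPKM came next, did not overlap with Cxcr6, and overlapped with each other. The remaining 6 receptors had means from 2.11 RPKM for Cxcr5 to 20.6 RPKM for Ccr7, and each overlapped with its neighbour in the order. Gut ILC2s thus carried mainly Ccr8 and Cxcr6 transcripts, with the gut-homing receptor Ccr9 at a lower level.

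In Tgfbr2-/- LP ILC2s the order began the same way, with Ccr8 at 808 ± 128 RPKM (SD, n = 3) and Cxcr6 at 238 ± 46.4 RPKM. Ccr9 at 56.9 ± 13.5 RPKM stood above Ccr4 at 30.0 ± 4.91 RPKM without overlap in these 3 libraries. Below Ccr4, each receptor overlapped with the next, from Cxcr3 at 24.7 RPKM down to Cxcr5 at 2.57 RPKM.

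Marrow precursors had another order. In WT BM ILC2p Cxcr6 was at 499 ± 81.0 RPKM (SD, n = 4) and Ccr8 at 437 ± 191 RPKM, with overlapping ranges and Cxcr6 higher in 3 of 4 libraries. Ccr9 at 168 ± 31.0 RPKM and then Ccr2 at 72.5 ± 25.2 RPKM stood apart from their neighbours in the order without overlap. The other 6 receptors had means from 0.023 RPKM for Cxcr5 to 17.6 RPKM for Cxcr3, and neighbours overlapped. In Tgfbr2-/- BM ILC2p Cxcr6 at 122 ± 24.5, Ccr2 at 106 ± 49.3, Ccr8 at 92.9 ± 77.2 and Ccr9 at 49.3 ± 36.1 RPKM (SD, n = 4) each overlapped with the next in this order, while Cxcr6, at 101.6 RPKM or more, stood above Ccr9, at 81.2 RPKM or less, in every library.

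**Figure D2:**
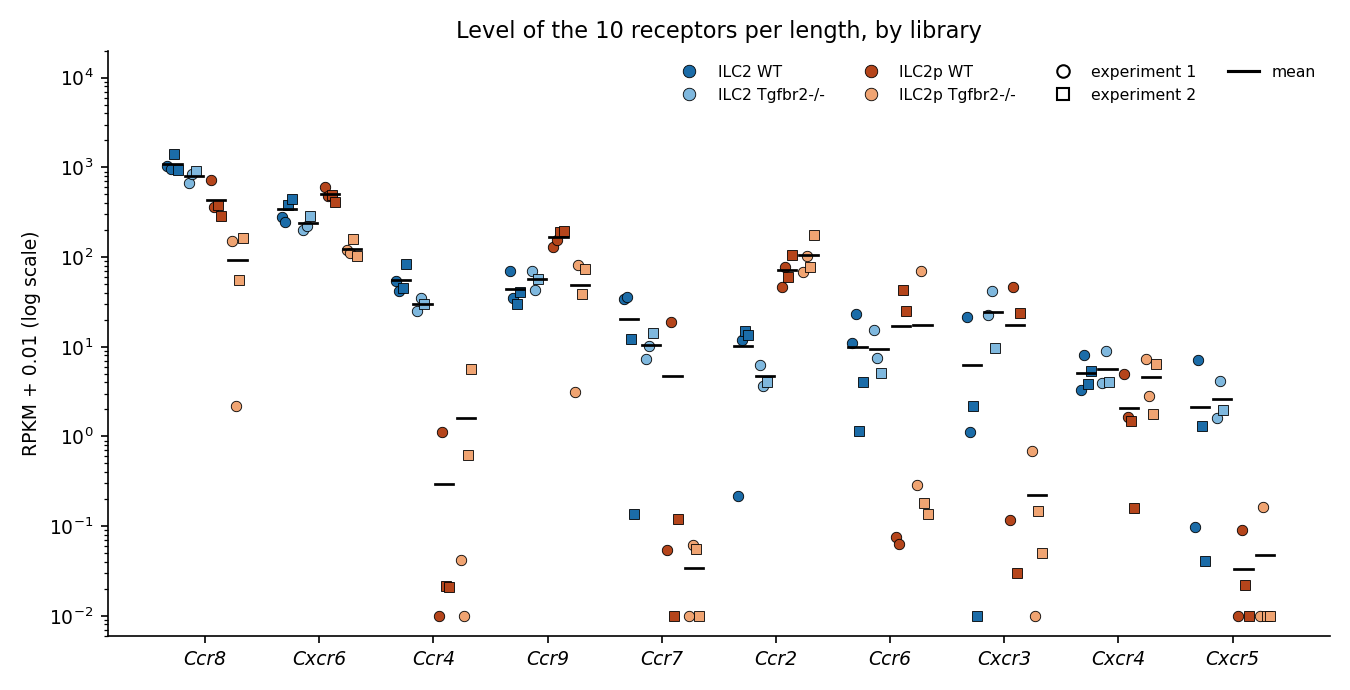
RPKM of the 10 receptors in each library, with 0.01 added, on a log axis, by group (circles, experiment 1; squares, experiment 2; bars, group means). Ccr8 and Cxcr6 are high in both cell types, and Ccr4 is high in LP ILC2s. Ccr6, Ccr7 and Cxcr3 are near 0 in some WT BM ILC2p libraries and at 18.9 RPKM or more in others.

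Detection was compared between the groups. Counting a receptor as detected in a group when every library had at least 1 CPM, 6 of 10 were detected in WT LP ILC2s, 10 of 10 in Tgfbr2-/- LP ILC2s, 4 of 10 in WT BM ILC2p and 5 of 10 in Tgfbr2-/- BM ILC2p. The 4 receptors of WT BM ILC2p were Ccr2, Ccr8, Ccr9 and Cxcr6, and Cxcr4 was added in Tgfbr2-/- BM ILC2p. Cxcr5 did not reach 1 CPM in any of the 8 BM ILC2p libraries. The rule spans 3 libraries in Tgfbr2-/- LP ILC2s and 4 in each other group. The share of all genes that met it was not counted. Single BM ILC2p libraries lacked up to 16.2% of abundant genes, against at most 0.359% in LP ILC2s. The part of these missing genes in the detection counts was not tested.

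Of the 10 genes, 6 lie on chromosome 9 of the mouse genome (coordinates of build NCBIM37, the mm9 assembly the authors used). Ccr9, Cxcr6 and Ccr2 are close together there, with 24505 bases between the end of Ccr9 and the start of Cxcr6 and 295816 bases from Cxcr6 to Ccr2. Cxcr6 (chr9:123715595-123720872) lies within Fyco1, which is on the opposite strand and shares no exon bases with it. The annotated Ccr9 gene shares exon bases with Slc6a20a and with the predicted genes Gm17200 and Gm17021. It also spans Lztfl1, on the opposite strand and without shared exon bases. Lztfl1 was 227 to 327 CPM in WT and 65.3 to 242 CPM in Tgfbr2-/- BM ILC2p, against 19.2 to 30.5 CPM in WT and 19.7 to 36.8 CPM in Tgfbr2-/- LP ILC2s. Regions shared between gene names were left out of the counts, the strand used in counting is not given in the sources used here, and the part of neighbouring genes in the Ccr9 values was not tested. The 250 bases before the start of the 5 receptors that the comparisons below turn on are shown from RefSeq (GRCm38.p6), which held 8 of the 10 genes. Each was found once, unchanged, in NCBIM37. The starts are those of RefSeq, and for Ccr8, Cxcr6 and Ccr4 the NCBIM37 gene begins at the same base. The NCBIM37 annotation begins Ccr9 at 123587557, so the Ccr9 window lies inside that longer gene, and Ccr2 at 124016689, so most of the Ccr2 window lies after that start. Capitals mark matches, on either strand, to letters bound by factors active in ILC2s or downstream of TGF-β: for GATA factors AGATAA, the variant AGATAG, likewise TGATAA and its variant TGATAG, for RUNX factors TGTGGT, and for SMAD factors CAGACA. The lines show Ccr8 (chr9:120001001-120001250, plus strand), Cxcr6 (chr9:123715345-123715594, plus strand), Ccr9 (chr9:123676079-123676328, plus strand), Ccr4 (chr9:114405663-114405912, minus strand) and Ccr2 (chr9:124016672-124016921, plus strand).
Ccr8: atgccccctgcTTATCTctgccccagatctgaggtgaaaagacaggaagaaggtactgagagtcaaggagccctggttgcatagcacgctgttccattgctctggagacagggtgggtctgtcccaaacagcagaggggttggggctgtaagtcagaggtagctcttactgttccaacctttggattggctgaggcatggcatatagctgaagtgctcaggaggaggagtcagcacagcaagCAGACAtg
Cxcr6: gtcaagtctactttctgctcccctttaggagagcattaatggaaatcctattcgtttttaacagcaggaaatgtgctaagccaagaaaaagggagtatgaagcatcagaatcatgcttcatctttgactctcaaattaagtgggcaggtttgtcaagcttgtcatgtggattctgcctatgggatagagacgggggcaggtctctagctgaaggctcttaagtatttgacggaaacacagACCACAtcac
Ccr9: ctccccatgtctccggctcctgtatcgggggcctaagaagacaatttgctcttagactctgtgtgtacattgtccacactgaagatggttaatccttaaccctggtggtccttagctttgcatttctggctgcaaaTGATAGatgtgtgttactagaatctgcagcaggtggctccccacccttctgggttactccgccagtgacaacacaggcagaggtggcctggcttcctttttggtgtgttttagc
Ccr4: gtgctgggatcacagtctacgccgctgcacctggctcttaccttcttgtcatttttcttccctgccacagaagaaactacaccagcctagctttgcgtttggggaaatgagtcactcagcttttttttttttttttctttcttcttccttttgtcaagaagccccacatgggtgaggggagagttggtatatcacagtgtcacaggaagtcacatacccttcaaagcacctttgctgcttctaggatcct
Ccr2: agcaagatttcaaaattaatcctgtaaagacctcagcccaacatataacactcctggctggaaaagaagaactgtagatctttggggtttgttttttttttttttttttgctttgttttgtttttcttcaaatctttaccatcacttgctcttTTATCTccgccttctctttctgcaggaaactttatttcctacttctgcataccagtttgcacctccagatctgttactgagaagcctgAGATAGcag
Counted from the RefSeq start, the Ccr8 window held a GATA match that begins 239 bases before it and a SMAD match 8 bases before it. The Cxcr6 window held a RUNX match 10 bases before the start, the Ccr9 window a GATA match 114 bases before it, the Ccr2 window GATA matches 97 and 9 bases before it, and the Ccr4 window none of these letters. Such matches were common: among 32851 promoter windows of the same length, 26.5% held a GATA match, 14% a RUNX match and 17.1% a SMAD match. A match describes the letters only.

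The first comparison set WT LP ILC2s beside WT BM ILC2p and asked which receptors differ between gut cells and marrow precursors. Ccr4 was called higher in LP ILC2s and Ccr2 higher in BM ILC2p (edgeR quasi-likelihood test, Benjamini-Hochberg adjusted p under 0.1 and a fold change over 1.5). Among all 12806 genes tested, 1.65% were called higher and 0.711% lower in WT LP ILC2s. Among the 10 receptors, 1 was called in each direction. With the experiments as terms in the fit neither was called (log2 fold change 7.37 for Ccr4 and −2.89 for Ccr2, edgeR adjusted p = 0.201 and 0.107). Neutrophil markers summed to at most 3.71 CPM in WT LP ILC2s and to 787 to 1553 CPM in WT BM ILC2p. Basophil and mast cell markers summed to at most 5.51 CPM and to 111 to 297 CPM in the same groups. The part of these markers' cells in the receptor differences of this contrast was not tested.

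Ccr4, the receptor for CCL17 and CCL22, was 153, 110.1, 109 and 197 CPM in WT LP ILC2s. In WT BM ILC2p it was 0, 2.61, 0.0282 and 0.0242 CPM, and every LP library was above every marrow library. Over the libraries together, 10341 counts in LP ILC2s stood against 47 in BM ILC2p, 45 of them in experiment 1 replicate 2, a ratio of 311 after scaling for depth (95% exact interval for counting error, 234 to 424). The log2 fold change was 7.74 ± 2.07 (SE) with an adjusted p of 0.0895, and without that library 12.2 (adjusted p = 0.0181), a fitted value against 2 counts left in the precursors. DESeq2 also called Ccr4 (log2 fold change 7.74, DESeq2 adjusted p = 5.75e-05). The edgeR call lay close to the threshold. It was not made with scaling to the ILC2 markers, an alternative chosen after seeing the data (7.31, adjusted p = 0.118). It was lost when any of 10 of the 15 libraries was left out (adjusted p 0.135 to 0.191), namely each of the 7 LP ILC2 libraries and WT BM ILC2p experiment 1 replicate 1 and experiment 2 replicates 1 and 2.

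Ccr2, the receptor for CCL2, was 173, 234, 194 and 305 CPM in WT BM ILC2p. In WT LP ILC2s it was 0.747, 40.3, 46.1 and 41.3 CPM, below every marrow library. The mean was 7.05-fold higher in the precursors (226 ± 58.1 against 32.1 ± 21.1 CPM, SD, n = 4 each; log2 fold change −2.82 ± 0.77, adjusted p = 0.0962 by edgeR). DESeq2 also called Ccr2 (−2.84, DESeq2 adjusted p = 0.00916). The edgeR call was lost in 12 of 15 repeats that left out 1 library (adjusted p 0.102 to 0.17). It was kept without WT LP ILC2 experiment 1 replicate 1, which had the lowest Ccr2. It was also kept without Tgfbr2-/- BM ILC2p experiment 1 replicate 1 or experiment 2 replicate 2. Monocytes express Ccr2, and their 7 markers summed to 55.1 to 115 CPM in the same WT BM ILC2p libraries and to 0.373 to 189 CPM in WT LP ILC2s. In the WT BM ILC2p libraries Csf1r, which defines the monocyte and macrophage line, was 0.445, 0.464, 8.01 and 0.363 CPM and Lyz2 24.7, 41.6, 68.8 and 39.5 CPM. The part of monocyte transcripts in the Ccr2 difference was not tested.

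Ccr9 and Ccr8 did not pass the test but did not overlap between the cell types. Ccr9 was 581, 569, 730.3 and 689 CPM in WT BM ILC2p and 303, 147, 111 and 151 CPM in WT LP ILC2s. The gut-homing receptor was therefore 3.60-fold higher in mean in the marrow precursors than in the gut cells (log2 fold change −1.85 ± 0.63, edgeR adjusted p = 0.19). Ccr8 was 859, 353, 391 and 268 CPM in WT BM ILC2p and 1195, 1055, 1397 and 918 CPM in WT LP ILC2s. Its mean was 2.44-fold higher in the gut cells (log2 fold change 1.29 ± 0.74, edgeR adjusted p = 0.595).

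Counting receptors whose libraries did not overlap, 2 of 10 were higher in WT LP ILC2s (Ccr4 and Ccr8) and 2 of 10 lower (Ccr2 and Ccr9), where 7.05% and 3.76% of all genes did so. Libraries that do not overlap always give the smallest p that an exact permutation test of 4 against 4 allows, 0.0286, so that p adds nothing for these 4 receptors. In all, 40 such tests of single receptors were run, without adjustment. Cxcr6 was 535, 446, 628 and 721 CPM in WT LP ILC2s and 1193, 764, 831 and 632 CPM in WT BM ILC2p. The ranges overlapped (log2 fold change −0.55 ± 0.25, edgeR adjusted p = 0.347; exact permutation p = 0.0571). As a share of the summed ILC2 markers Cxcr6 was 4.84 to 6.99% in WT LP ILC2s and 9.68 to 13.0% in WT BM ILC2p, without overlap, and scaled to these markers it was −0.86 and not called (adjusted p = 0.111).

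The marrow retention receptor Cxcr4 was low in both cell types. It was 5.97, 14.1, 5.95 and 8.22 CPM in WT LP ILC2s and 9.44, 2.49, 2.40 and 0.218 CPM in WT BM ILC2p. The ranges overlapped and no difference passed the test (log2 fold change 1.24, adjusted p in edgeR 0.905).

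The remaining receptors were uneven among libraries of a group. Ccr7 was 66.7, 66.0, 20.05 and 0.209 CPM in WT LP ILC2s and 0.089, 30.5, 0 and 0.169 CPM in WT BM ILC2p. Ccr6 was 17.3, 34.6, 1.52 and 5.64 CPM in WT LP ILC2s and 0.089, 0.058, 59.2 and 31.6 CPM in WT BM ILC2p. Cxcr3 was 34.8, 1.73, 3.03 and 0 CPM in WT LP ILC2s and 0.178, 62.2, 0.0282 and 31.2 CPM in WT BM ILC2p. Each of these 3 had high and low libraries in both cell types, and none was called. Cxcr5, the receptor for the follicle chemokine CXCL13, had 425 counts in WT LP ILC2s against 4 in WT BM ILC2p (ratio 150.3, counting interval 58.3 to 554). Its LP libraries were unequal, at 0.233, 17.6, 2.92 and 0.0697 CPM, and the difference was not called by edgeR, while DESeq2 called it (adjusted p = 0.00805).

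The same contrast was made between the Tgfbr2-/- groups, where 8.21% of all genes were called higher and 3.44% lower in LP ILC2s. Ccr7 and Ccr8 were called higher in Tgfbr2-/- LP ILC2s and Ccr2 was called lower, 3 of the 10 receptors. The markers of other cells differed between the same libraries: the neutrophil sum was at most 1.31 CPM in Tgfbr2-/- LP ILC2s and 76079 CPM or more in Tgfbr2-/- BM ILC2p, and the monocyte sum at most 20.9 CPM and 12223 CPM or more. Their part in the receptor differences of this contrast was not tested. By libraries that did not overlap, 6 of 10 receptors were higher (Ccr4, Ccr7, Ccr8, Cxcr3, Cxcr5 and Cxcr6) and 1 lower (Ccr2), beside 18.1% and 7.18% of all genes.

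Ccr2 was 20.1, 12.7 and 12.5 CPM in Tgfbr2-/- LP ILC2s and 269, 385, 265 and 755 CPM in Tgfbr2-/- BM ILC2p. Every marrow library was far above every gut library, and the mean was 27.7-fold higher (log2 fold change −4.79 ± 0.96, edgeR adjusted p = 0.00921). This call was kept in 15 of 15 repeats with 1 library left out, and DESeq2 made it too (adjusted p = 4.51e-07). Scaled to the ILC2 markers in place of all genes, the difference was −6.05 (adjusted p = 0.0011). The monocyte markers were 12223 to 13717 CPM in these marrow libraries, and their part in the Ccr2 difference was not tested. The library with 755 CPM of Ccr2, experiment 2 replicate 2, had the highest sum of these markers and of Lyz2 (12528 CPM), and the lowest Csf1r (0.618 CPM, against 121 to 289.6 CPM in the other 3).

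Ccr8 was 681, 936 and 902 CPM in Tgfbr2-/- LP ILC2s and 189.8, 2.59, 61.6 and 225 CPM in Tgfbr2-/- BM ILC2p. The gut cells were higher in every library, 7.01-fold in mean (log2 fold change 2.81 ± 0.81, edgeR adjusted p = 0.0524). DESeq2 also called Ccr8 (2.66, DESeq2 adjusted p = 0.0252). The edgeR call was lost without Tgfbr2-/- LP ILC2 experiment 1 replicate 2 or experiment 2 replicate 1 (adjusted p 0.123 and 0.115). Scaled to the ILC2 markers, the log2 fold change of Ccr8 was 1.52 (edgeR adjusted p = 0.168). The ILC2 marker sum was 2885 to 4147 CPM in these marrow libraries and 7169.6 to 9901 CPM in the gut libraries.

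Ccr7, the receptor for the lymph node chemokines CCL19 and CCL21, was 12.6, 18.6 and 23.4 CPM in Tgfbr2-/- LP ILC2s and 0, 0.103, 0.0849 and 0 CPM in Tgfbr2-/- BM ILC2p. The groups were far apart, with 1319 counts against 3, a ratio of 393 with a counting interval of 134 to 1908, and edgeR gave an adjusted p of 0.0695. DESeq2 also called Ccr7 (8.43, DESeq2 adjusted p = 0.000714). Leaving out any of the 3 Tgfbr2-/- LP ILC2 libraries ended the edgeR call. So did leaving out Tgfbr2-/- BM ILC2p experiment 1 replicate 1 or 2 or experiment 2 replicate 2 (adjusted p 0.106 to 0.131 over these repeats). With ILC2 marker scaling the log2 fold change of Ccr7 was 7.03 and called (adjusted p = 0.0781), beside 8.46 with TMM.

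Cxcr3 and Cxcr5 also had nearly no counts in Tgfbr2-/- BM ILC2p but were not called in the edgeR fit used here. DESeq2 called both (adjusted p = 0.00849 for Cxcr3 and 0.0248 for Cxcr5), and edgeR with the experiments as terms called Cxcr5 (log2 fold change 6.80, adjusted p = 0.0696). Leaving out 1 library, edgeR called Cxcr3 without WT BM ILC2p experiment 1 replicate 1 or experiment 2 replicate 1 (adjusted p 0.0942 and 0.097) and Cxcr5 without Tgfbr2-/- BM ILC2p experiment 1 replicate 2 (adjusted p 0.073). Cxcr3 was 32.1, 64.1 and 13.4 CPM in Tgfbr2-/- LP ILC2s and 1.19, 0, 0.212 and 0.0773 CPM in the precursors (ratio of counts 154, interval 98.4 to 256). Cxcr5 was 3.69, 10.45 and 4.36 CPM in Tgfbr2-/- LP ILC2s and 0, 0.414, 0 and 0 CPM in the precursors (ratio of counts 115, interval 44.7 to 424). For Ccr2, Ccr7, Cxcr3, Cxcr5 and Cxcr6 the exact permutation p was 0.0286, the smallest that 3 against 4 libraries allow here. For Ccr4 it was 0.0571 and for Ccr8 0.0857 by the same exact test.

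Ccr4 was again higher in value in the gut cells, at 61.6, 92.7 and 72.1 CPM in Tgfbr2-/- LP ILC2s. In Tgfbr2-/- BM ILC2p it was 0.099, 0, 1.61 and 18.8 CPM, without overlap (log2 fold change 3.87, edgeR adjusted p = 0.209). Without Tgfbr2-/- BM ILC2p experiment 2 replicate 2, the library with 18.8 CPM, the log2 fold change was 6.95 and the adjusted p 0.0589. Cxcr6 was 338, 402 and 469 CPM in Tgfbr2-/- LP ILC2s and 249, 217, 285 and 229 CPM in Tgfbr2-/- BM ILC2p (log2 fold change 0.72, edgeR adjusted p = 0.114; called with the experiments as terms, 0.77, adjusted p = 0.0674). Its direction turned when libraries were scaled to the ILC2 markers (−0.70, adjusted p = 0.0822). Ccr6 and Cxcr4 overlapped between these groups: Ccr6 was 0.396, 113, 0.255 and 0.232 CPM in Tgfbr2-/- BM ILC2p, and Cxcr4 was 14.4, 5.38, 3.06 and 13.8 CPM there. Ccr9 overlapped as well, at 269.7, 179 and 214 CPM in the gut cells and 14.9 to 383 CPM in the precursors.

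**Figure D3:**
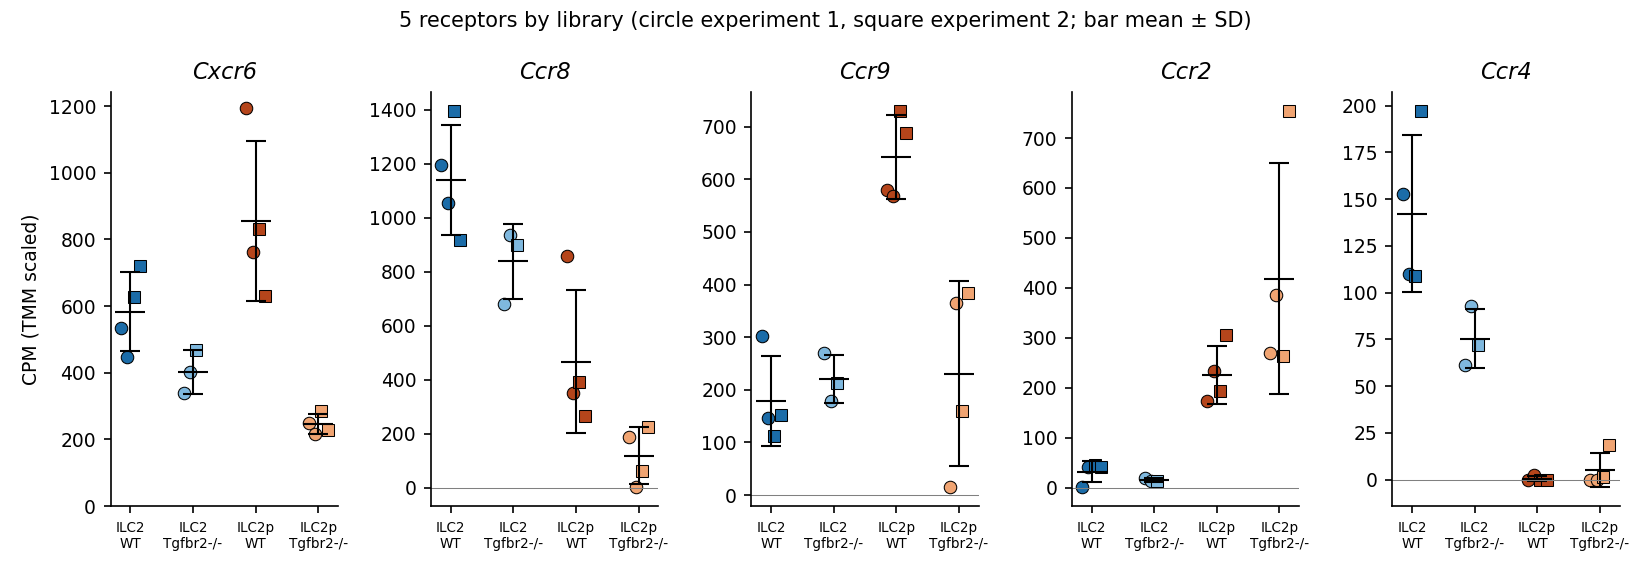
CPM of Cxcr6, Ccr8, Ccr9, Ccr2 and Ccr4 in each library by group, with the mean and SD. Cxcr6 lies between 217 and 285 CPM in Tgfbr2-/- BM ILC2p and between 632 and 1193 CPM in WT BM ILC2p.

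The effect of Tgfbr2 deletion on the receptors was compared in BM ILC2p with the experiment as a covariate. Of the 10 receptors, 5 passed the filter on low counts (Ccr2, Ccr8, Ccr9, Cxcr4 and Cxcr6), and 1, Cxcr6, was called, lower in Tgfbr2-/- BM ILC2p. Among all 9242 genes tested, 2.61% were called higher and 0.866% lower. By libraries that did not overlap, 3 of 10 receptors were lower (Ccr8, Ccr9 and Cxcr6) and 0 were higher, beside 3.12% lower and 4.72% higher among all genes. Compared within each experiment, the same 3 of 10 were lower and 0 higher, beside 4.85% lower and 6.15% higher among all genes.

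Cxcr6, the receptor for CXCL16, fell from 1193, 764, 831 and 632 CPM in WT to 249, 217, 285 and 229 CPM in Tgfbr2-/- BM ILC2p. The lowest WT library was above the highest Tgfbr2-/- library, and the mean was 3.49-fold lower (855 ± 240.4 against 245 ± 30.0 CPM, SD, n = 4 each). The log2 fold change was −1.82 ± 0.28 with an edgeR adjusted p of 0.0101, and the call was kept in 8 of 8 repeats that left out 1 library (adjusted p 0.026 to 0.0575). Within experiment 1 the change was −2.09 and within experiment 2 −1.58, neither called with 2 libraries against 2 (adjusted p 0.308 and 0.266). DESeq2 gave −1.72 with an adjusted p of 0.107, not called.

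In the same libraries the neutrophil markers summed to 76079 CPM or more, against at most 1553 CPM in WT, and the monocyte markers to 12223 CPM or more, against at most 115 CPM. Their part in the Cxcr6 difference, and in those of Ccr8 and Ccr9 described next, was not tested beyond the scaling given here. The summed ILC2 markers were lower in these libraries. Cxcr6 amounted to 13.0, 10.9, 10.7 and 9.68% of the summed ILC2 markers in WT BM ILC2p and to 7.93, 7.33, 9.89 and 5.52% in Tgfbr2-/- BM ILC2p, ranges that overlapped. Scaled to these markers, the log2 fold change of Cxcr6 was −0.53 and was not called (adjusted p = 0.373). This scaling moved the median of all genes from −0.10 to 1.16, and its markers include Gata3 and Il1rl1, called lower with TMM. In LP ILC2s the same percentage was 6.26, 4.84, 6.37 and 6.99% in WT and 4.72, 4.66 and 4.74% in Tgfbr2-/- libraries, without overlap.

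Ccr8 and Ccr9 were lower in each Tgfbr2-/- library than in each WT library but were not called. Ccr8 fitted a log2 fold change of −1.98 ± 1.03 (edgeR adjusted p = 0.673), with means of 468 and 119.8 CPM, a 3.90-fold difference. Its Tgfbr2-/- libraries ran from 2.59 to 225 CPM, and without the library at 2.59 CPM, experiment 1 replicate 2, the log2 fold change was −1.45 (adjusted p = 0.344). Ccr9 was 14.9, 366, 159 and 383 CPM in Tgfbr2-/- BM ILC2p, against 569 to 730.3 CPM in WT (log2 fold change −1.52 ± 0.75, edgeR adjusted p = 0.631, 2.78-fold in mean). Without its lowest library, experiment 1 replicate 1, it was −1.12 (adjusted p = 0.305). The lowest libraries of these receptors were those with 16.2% and 14.8% of abundant genes missing, and the part of missing transcripts in these values was not tested. For Ccr8, Ccr9 and Cxcr6 the exact permutation p within experiments was 0.0556, the smallest this design allows and the one that libraries without overlap always give.

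As a share of the ILC2 marker sum, Ccr8 and Ccr9 did not separate the genotypes. Ccr8 was 4.10 to 9.39% of the marker sum in WT and 0.0875 to 6.05% in Tgfbr2-/- BM ILC2p. Ccr9 was 6.34 to 10.6% in WT and 0.474 to 12.4% in Tgfbr2-/- BM ILC2p. Scaled to the markers, the fitted changes were −0.75 for Ccr8 and −0.31 for Ccr9 (adjusted p 0.713 and 0.84).

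Ccr2 ran the other way, at 173, 234, 194 and 305 CPM in WT, against 269, 385, 265 and 755 CPM in Tgfbr2-/- BM ILC2p, with overlap (log2 fold change 0.82 ± 0.40, edgeR adjusted p = 0.616). Scaled to the ILC2 markers it was 1.99 and called (adjusted p = 0.0223), and as a share of their sum it was 1.89 to 4.67% in WT and 8.58 to 18.2% in Tgfbr2-/- BM ILC2p. Monocyte markers, 12223 to 13717 CPM in the Tgfbr2-/- libraries, moved with it, and their part was not tested. Cxcr4 was fitted at 1.66 ± 1.48 (edgeR adjusted p = 0.894), with WT and Tgfbr2-/- libraries overlapping.

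The remaining receptors were compared between the same libraries, with the marker sums given above. Cxcr3 had 2365 counts in WT and 19 in Tgfbr2-/- BM ILC2p, and Ccr7 had 534 and 3. Nearly all of the WT counts came from 2 of 4 libraries for Cxcr3 (62.2 and 31.2 CPM) and from 1 of 4 for Ccr7 (30.5 CPM), so the remaining WT libraries were as low as the Tgfbr2-/- ones. Neither passed the filter of the edgeR fit, and DESeq2 called Cxcr3 lower (log2 fold change −6.09, adjusted p = 0.014). Ccr6 was high in 2 WT libraries of experiment 2 and in 1 Tgfbr2-/- library of experiment 1, with the other 5 libraries at 0.058 to 0.396 CPM. Ccr4 had 47 counts in WT and 525 in Tgfbr2-/- BM ILC2p, most of the latter in a single library.

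**Figure D4:**
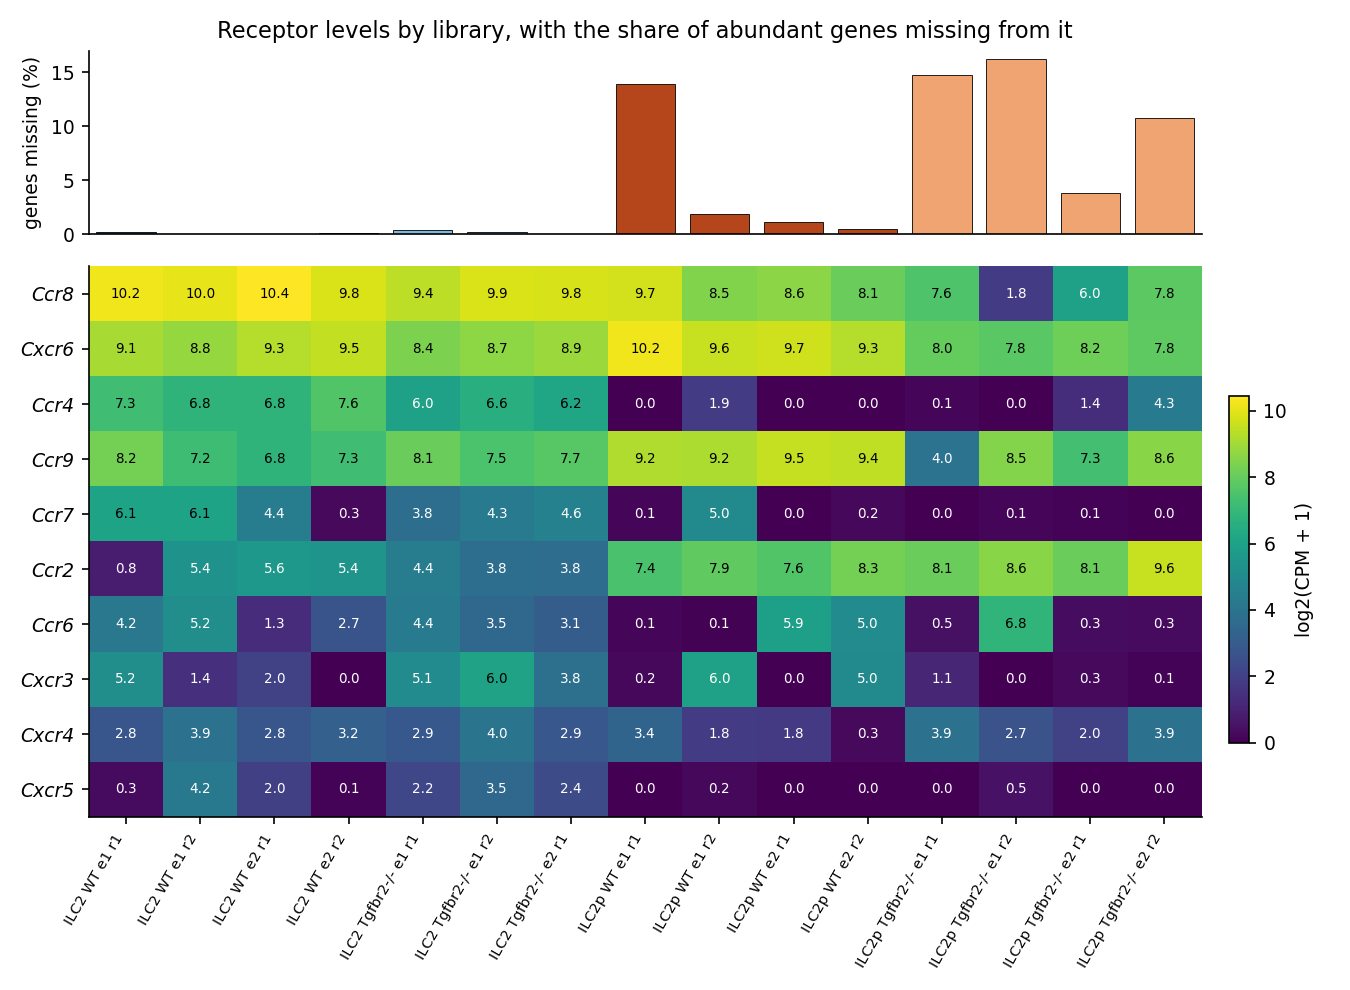
Percentage of abundant genes missing in each library (bars) above the log2(CPM + 1) of the 10 receptors in the same libraries (colours). The bars reach 16.2% in BM ILC2p and 0.359% in LP ILC2s, and low receptors are present in some BM ILC2p libraries and near 0 in others of the same group.

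In LP ILC2s no gene was called between the genotypes by edgeR (0.0% higher and 0.0% lower of 11981 tested, with 557 at an unadjusted p under 0.05), while DESeq2 called 953. All 10 receptors were tested and 0 were called by edgeR. Ccr4 alone did not overlap, 1 receptor lower and 0 higher, beside 2.21% lower and 3.08% higher among all genes. It was 153, 110.1, 109 and 197 CPM in WT, against 61.6, 92.7 and 72.1 CPM in Tgfbr2-/- LP ILC2s (log2 fold change −0.93 ± 0.29, edgeR adjusted p = 0.898; exact permutation p = 0.111). DESeq2 called it lower (adjusted p = 0.0757). The paper's own edgeR analysis, on fewer libraries per condition, lists Ccr4 among the genes lower in Tgfbr2-/- LP ILC2s.

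In CPM, Cxcr6 and Ccr8 overlapped between the genotypes over all libraries. Within each experiment they were lower in each Tgfbr2-/- library than in each WT library, as was Ccr4, 3 of 10 receptors lower and 0 higher, beside 5.27% lower and 7.05% higher among all genes. For Cxcr6 the log2 fold change was −0.48 ± 0.16 (edgeR adjusted p = 0.898), at −0.43 within experiment 1 and −0.49 within experiment 2. The exact permutation p for Cxcr6 was 0.0556, the smallest of this design. Ccr8 was 1195, 1055, 1397 and 918 CPM in WT, against 681, 936 and 902 CPM in Tgfbr2-/- LP ILC2s (log2 fold change −0.46 ± 0.20, −0.50 and −0.33 within the experiments; edgeR adjusted p = 0.898, exact permutation p = 0.167). The neutrophil marker sum was at most 3.71 CPM in the LP ILC2 libraries of both genotypes.

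Ccr9 was 303, 147, 111 and 151 CPM in WT, against 269.7, 179 and 214 CPM in Tgfbr2-/- LP ILC2s, with overlap (log2 fold change 0.25, and −0.047 without Tgfbr2-/- experiment 2 replicate 1). Ccr2 was fitted at −0.89, and at 1.20 without WT experiment 1 replicate 2, and its WT library at 0.747 CPM was far below the other WT libraries at 40.3 to 46.1 CPM. Cxcr3 was fitted at 2.07 ± 1.29. Its WT libraries were 34.8, 1.73, 3.03 and 0 CPM and its Tgfbr2-/- libraries 32.1, 64.1 and 13.4 CPM, so the genotypes overlapped through 1 WT library. NK cell and ILC1 markers, which go with Cxcr3 in type 1 lymphocytes, summed to 391, 229, 217 and 285 CPM in the 4 WT LP libraries, against 293, 496 and 942 CPM in the Tgfbr2-/- ones, led by Gzma, and their part was not tested. Ccr6, Ccr7, Cxcr4 and Cxcr5 overlapped between the genotypes in LP ILC2s, and Ccr7 ranged from 0.209 to 66.7 CPM in WT libraries and from 12.6 to 23.4 CPM in Tgfbr2-/- ones.

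The difference between the genotype effects in the cell types was tested itself, as an interaction with the experiments as terms. Here 0.469% of genes were called higher and 0.523% lower of 12806, and 0 of the 10 receptors were called by edgeR. For Cxcr6 the effect was 1.34 ± 0.34 higher on the log2 scale in LP ILC2s than in BM ILC2p (adjusted p = 0.115), where the median of all genes was 0.31. Ccr8 was 1.5 higher and Ccr9 1.78 higher, also not called. The neutrophil and monocyte sums of the Tgfbr2-/- BM ILC2p libraries enter this contrast too, and their part was not tested. With ILC2 marker scaling the value for Cxcr6 was 0.19 (adjusted p = 0.862). DESeq2 called 1 receptor, Cxcr3 (adjusted p = 0.019). The Cxcr6 difference was called without WT BM ILC2p experiment 1 replicate 1 or without Tgfbr2-/- BM ILC2p experiment 2 replicate 1 (adjusted p 0.0981 and 0.0573). Ccr4, fitted at −3.09 (adjusted p = 0.948), was called lower without WT BM ILC2p experiment 1 replicate 2, the WT precursor library with 2.61 CPM (−9.03, adjusted p = 0.0318).

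The other 14 receptors of the chemokine family were mostly absent or low. In LP ILC2s the most abundant was Ccrl2, a receptor that binds chemerin without signalling of its own, at a mean of 309 RPKM, close to Cxcr6. In BM ILC2p it was Cxcr2, the neutrophil receptor, at 95 RPKM in mean. Cxcr2 was 1.81 to 4.43 CPM in WT, against 508 to 754 CPM in Tgfbr2-/- BM ILC2p (log2 fold change 7.5, edgeR adjusted p = 5.79e-05), and at most 0.42 CPM in LP ILC2s. Together with Ccr1, a receptor of myeloid cells (log2 fold change 6.62, edgeR adjusted p = 0.0443), it made up 2 of 4 tested genes of this list that rose. The same pair was called lower in Tgfbr2-/- LP ILC2s than in Tgfbr2-/- BM ILC2p, Cxcr2 was called lower in WT LP ILC2s than in WT BM ILC2p, and Cxcr2 was called in the interaction (1 of 8 tested, lower). The median of the list in BM ILC2p was 3.32 beside −0.10 over all genes. The neutrophil markers, 7 of 8 of which rose in the same comparison, moved with Cxcr2.

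Of the 19 ligands of the 10 receptors, 17 were in the files. Of those that passed the filter, edgeR called 0 of 8 in each contrast between the cell types and in the interaction, 0 of 7 in LP ILC2s and 0 of 2 in BM ILC2p. With ILC2 marker scaling 1 of 8, Ccl2, was called lower in Tgfbr2-/- LP ILC2s than in Tgfbr2-/- BM ILC2p. The most abundant in both cell types was Cxcl10, a CXCR3 ligand, at a mean of 124 RPKM in LP ILC2s and 17.3 RPKM in BM ILC2p. Ccl1, the ligand of the most abundant gut receptor Ccr8, was 32.2 to 68.7 CPM in WT, against 27.0 to 99.8 CPM in Tgfbr2-/- LP ILC2s, and 0 to 32.5 CPM in BM ILC2p. LP ILC2s therefore held transcripts of both Ccr8 and Ccl1. Ccl25, the CCR9 ligand, did not exceed 26.9 CPM in any library, and Cxcl12, the CXCR4 ligand, did not exceed 11.4 CPM. Cxcl16, the CXCR6 ligand, was at 0 in all 8 BM ILC2p libraries.

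Of 25 genes of signalling and desensitisation, a pair of RGS genes was called between the WT cell types. Rgs1, most abundant of the list in LP ILC2s at 963 RPKM in mean, was 1147 to 1494 CPM in WT LP ILC2s and 481 to 779 CPM in WT BM ILC2p. It was called higher in the gut cells (log2 fold change 1.19, edgeR adjusted p = 0.0777). Rgs2 was 1920.3 to 2805 CPM and 232 to 451 CPM in the same groups and was called higher too (2.98, edgeR adjusted p = 2.22e-05). These 2 of 25 tested were called higher and 0 lower in WT LP ILC2s, and scaled to the ILC2 markers Rgs1 was 0.85 and not called (adjusted p = 0.222). Against Tgfbr2-/- BM ILC2p, Rgs1 and Rgs2 were called higher in Tgfbr2-/- LP ILC2s and Coro1a, Gnai2 and Rac2 lower, 2 and 3 of 25. The number called lower rested on the scaling: with ILC2 marker scaling 14 of 25 were called lower in this contrast, and Rgs1 and Rgs2 were still called higher.

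In BM ILC2p, Rgs1 was called lower in the Tgfbr2-/- libraries (log2 fold change −1.75, edgeR adjusted p = 0.0716), while Gnai2, the inhibitory G protein subunit (1.65, adjusted p = 0.0356), and Coro1a, an actin regulator (1.00, adjusted p = 0.0475), were called higher, 2 and 1 of 24 tested. The neutrophil marker sum, 76079 CPM or more in the Tgfbr2-/- libraries and at most 1553 CPM in WT, moved with these calls and with that of Itgb7 below, and its part was not tested. Under ILC2 marker scaling, Rgs1 was −0.53 and not called (adjusted p = 0.549), and Gnai2 and Coro1a were 2.89 and 2.24 and called, and the tally became 8 higher (with Arrb2, Dock2, Gnai3, Rac2, Rassf5 and Rgs2) and 0 lower of 24. Coro1a was the most abundant of the list in BM ILC2p, at 991 RPKM in mean. In the interaction Gnai2 was called lower, 1 of 25, and with ILC2 marker scaling 5 were (Coro1a, Gnai2, Rac2, Rassf5 and Rgs2). In LP ILC2s 0 of 24 were called between the genotypes.

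Among 6 homing receptors outside the chemokine family, Itgb7, the β7 chain of the gut-homing integrin α4β7, was the most abundant in both cell types, at 666 RPKM in LP ILC2s and 419 RPKM in BM ILC2p in mean. The BM ILC2p were sorted on α4β7, so its presence there is not a finding. Itgb7 was 1103 to 1763 CPM in WT, against 509 to 893 CPM in Tgfbr2-/- BM ILC2p and was called lower (log2 fold change −1.05, edgeR adjusted p = 0.0832), a direction that turned with scaling to the ILC2 markers (0.22, adjusted p = 0.648). Gpr183, the oxysterol receptor, was called higher in WT LP ILC2s (1.69, edgeR adjusted p = 0.0156) and, with Itgb7, in Tgfbr2-/- LP ILC2s. With the ILC2 marker scaling, Gpr183 was 1.35 in the WT contrast and not called (adjusted p = 0.129), and in the Tgfbr2-/- contrast Gpr183 and Itgb7 turned to −0.17 and −0.19. The counts in this list were 1 lower of 3 tested in BM ILC2p, 1 higher of 4 in the WT contrast, 2 higher of 4 in the Tgfbr2-/- contrast, and 0 in LP ILC2s and in the interaction. With ILC2 marker scaling they were 0 in BM ILC2p, in the WT contrast and in the interaction, and 0 higher and 1 lower in the Tgfbr2-/- contrast, Itga4, the α4 integrin chain (−1.90, edgeR adjusted p = 0.012).

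Markers of other cells gave smaller sums. B cell markers reached 91.9 CPM in LP ILC2s and 165 CPM in BM ILC2p, led by Cd79b, and Cd79a was called higher in WT LP ILC2s than in WT BM ILC2p. T cell markers reached 82.9 and 67.6 CPM, with Cd3g called higher in Tgfbr2-/- LP ILC2s than in Tgfbr2-/- BM ILC2p. NK and ILC1 markers were 0.445 to 37.3 CPM in WT, against 94.3 to 427 CPM in Tgfbr2-/- BM ILC2p, with Gzma called higher there and Prf1 the most abundant per length. Gzma, the most abundant of the list in LP ILC2s, and Tbx21 were called higher in the gut cells in both contrasts, and Gzma was called lower in the interaction. The 4 ILC3 markers given here, the cytokines Il22, Il17a and Il17f and the receptor Il23r, summed to at most 425 CPM in LP ILC2s, led by Il22, and to at most 1.52 CPM in BM ILC2p, led by Il23r. Il22 and Il17a were called higher in WT LP ILC2s than in WT BM ILC2p, joined by Il17f between the Tgfbr2-/- groups. ILC3s are a known source of Ccr6. The gut sort on Sca-1, CD25 and KLRG1 was set for mature ILC2s, and the share of ILC3 transcripts in the Ccr6 values was not tested.

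Dendritic cell markers reached 32.7 CPM in LP ILC2s and 258 CPM in BM ILC2p, where Cd209a was called higher in the Tgfbr2-/- than in the gut cells of that genotype. Eosinophil markers were at most 0.508 CPM in LP ILC2s and at most 324 CPM in BM ILC2p, led by Prg2. Epithelium markers were highest in experiment 2 of LP ILC2s, at 336 CPM in WT replicate 2 and 835 CPM in Tgfbr2-/- replicate 1, led by Krt8, and Cdh1 and Muc2 were called higher in Tgfbr2-/- LP ILC2s than in Tgfbr2-/- BM ILC2p. With TMM, none of these 3 lists had a gene called by edgeR between the genotypes of a cell type. Scaled to the ILC2 markers, Cd209a was called higher in Tgfbr2-/- than in WT BM ILC2p (log2 fold change 9.50, edgeR adjusted p = 0.0364). With TMM it was 8.31 (edgeR adjusted p = 0.116).

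The 12 ILC2 markers also differed between tissues. In WT LP ILC2s Klrg1, which was part of the gut gate, Il17rb and Rora were called higher than in WT BM ILC2p, and Il1rl1 and Ly6a lower. In Tgfbr2-/- LP ILC2s Areg, Gata3, Il17rb, Klrg1 and Rora were called higher and Il1rl1 lower than in Tgfbr2-/- BM ILC2p. With ILC2 marker scaling, Il17rb was called in neither contrast (log2 fold change 0.90 and 0.47, edgeR adjusted p = 0.133 and 0.251). Gata3, which leads the sum used for this scaling, was then not called between the Tgfbr2-/- groups (−0.019, edgeR adjusted p = 0.949). Il7r was called lower in the gut cells in both contrasts under this scaling, and Il2ra and Ly6a were called lower in Tgfbr2-/- LP ILC2s. All 8 neutrophil markers were called lower in the gut cells in both contrasts, Elane included. Cpa3, Mcpt8 and Prss34 were called lower in WT LP ILC2s, and with Fcer1a and the eosinophil gene Prg2 in Tgfbr2-/- LP ILC2s. Of the monocyte markers, Ly6c2 was called lower in WT LP ILC2s, and Cd68, Ly6c2 and Lyz2 were called lower in Tgfbr2-/- LP ILC2s. Ltf and Ly6c2 were called lower in the interaction. Between the genotypes in LP ILC2s none of the marker lists had a called gene.

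The genes most like the leading receptors were named by Pearson's r of log2(CPM + 1) over the 15 libraries, which share cell type and genotype groups. For Ccr8, the most abundant receptor of WT LP ILC2s, these were Tap2 (r = 0.963), Csrnp1 (r = 0.962) and Enpp4 (r = 0.959). Cxcr6 had the highest mean RPKM of the receptors in WT BM ILC2p, with a range that overlapped that of Ccr8. For Cxcr6 the genes were Sepp1 (r = 0.931), Sbf2 (r = 0.912) and Ttc37 (r = 0.901). Csrnp1 was 1107 to 2049 CPM in WT and 1275 to 1784 CPM in Tgfbr2-/- LP ILC2s, 351 to 618 CPM in WT and 4.76 to 471 CPM in Tgfbr2-/- BM ILC2p. These genes were chosen for their likeness over the same libraries, so their values describe that choice. Sepp1, which encodes selenoprotein P, was 226 to 317 CPM in WT, against 86.1 to 165 CPM in Tgfbr2-/- BM ILC2p.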

How the data were processed

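The 15 libraries were measured by RNA-seq. The authors aligned reads with TopHat to mm9 and counted them over whole UCSC transcripts, leaving out regions where names overlap. They deposited read counts and RPKM values per library (24690 entries, 24089 symbols), and the counts, as deposited, were tested here. RPKM served to compare genes and CPM to compare libraries.

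Tests used edgeR 4.0.16 (R 4.3.3; TMM, filterByExpr, quasi-likelihood F test) over all entries that passed the filter. A gene was called at a Benjamini-Hochberg adjusted p under 0.1 and a fold change over 1.5. The fits within a cell type had the experiment as covariate. Fits between cell types used 1 model of the 15 libraries, in which the spread between experiments stays in the residual. The script was tested on simulated data. Single receptors were also compared by two-sided exact permutation tests on log2(CPM + 1). DESeq2 1.42.0, its size factors, no filter, a replicate block, each experiment alone, experiment terms, a stricter threshold, each library left out and, chosen after seeing the data, scaling to the 12 ILC2 markers were alternatives. Counting intervals are exact and cover counting error only, since reads are not independent molecules. The named genes are the 10 receptors, every called gene and the most abundant gene of each list, and the 3 genes most like the leading receptors. Receptors and lists were chosen with earlier results of these data known. A few genes of the lists are not reported here, and counts and sums leave them out.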

Additional observations from a re-analysis of the deposited data

Results flagged for a closer look

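In 9 of 30 sets of 4 libraries (a receptor in a group), the highest or lowest library lay so far from the rest that its gap, over the whole range, passed Dixon's 95% critical value for 4 values. Chance flags about 1 in 20 such sets of normally distributed values, and these sets are skewed counts, some near 0, for which the rate was not measured. Ccr2 was 0.747 CPM in WT LP ILC2 experiment 1 replicate 1, below the other 3 WT libraries. In the same library Cxcr3 was 34.8 CPM, above the others. Cxcr5 was 17.6 CPM in WT LP ILC2 experiment 1 replicate 2.

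In WT BM ILC2p, experiment 1 replicate 2 was the high library for Ccr4 at 2.61 CPM, for Ccr7 at 30.5 CPM and for Cxcr5 at 0.174 CPM. In Tgfbr2-/- BM ILC2p, Ccr6 was 113 CPM and Cxcr5 0.414 CPM in experiment 1 replicate 2, and Ccr4 was 18.8 CPM in experiment 2 replicate 2. The Cxcr5 values rest on 4 counts in each BM ILC2p group. The libraries of Tgfbr2-/- BM ILC2p named here lacked 16.2% and 10.8% of abundant genes, and the WT library 1.83%.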

How the results depend on the processing

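The number of called genes (0 in LP ILC2s, 321 in BM ILC2p, 302 between the WT and 1492 between the Tgfbr2-/- cell types, 127 in the interaction) was 953, 2018, 1107, 2780 and 2012 with DESeq2. With no filter it was 3 in LP ILC2s, 988 between the Tgfbr2-/- cell types and 259 in the interaction. Scaled to the ILC2 markers it was 943 in BM ILC2p (880 higher, 63 lower, beside 241 and 80 with TMM; DESeq2 955 and 1063), 3162 between the Tgfbr2-/- cell types (909 and 2253, beside 1051 and 441), and 480 in the interaction (68 and 412, beside 60 and 67). Between the WT cell types it was 273 (151 and 122, beside 211 and 91). This scaling moved the median of all genes to −0.36 between the WT and −1.43 between the Tgfbr2-/- cell types and to −0.75 in the interaction. In BM ILC2p, experiment 1 alone gave 38 and experiment 2 alone 77.

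Receptors called (0, 1, 2, 3 and 0 in the same order) were 1, 1, 3, 5 and 1 with DESeq2. Of all genes tested, DESeq2 called 953 of 17013, 2018 of 12065, 1107 of 12767, 2780 of 12767 and 2012 of 17409. In BM ILC2p, edgeR called 0 receptors within either experiment. Between the WT cell types they were 0 with experiment terms, 0 at an adjusted p under 0.05 and 1 with ILC2 marker scaling. Between the Tgfbr2-/- cell types they were 5 with experiment terms and 1 at the stricter threshold. Of all 12806 genes, experiment terms called 2045 between the Tgfbr2-/- and 373 between the WT cell types. The stricter threshold called 750 and 151 in the same contrasts.

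Leaving out each library in turn gave 179 to 319 called genes in BM ILC2p, 157 to 370 between the WT cell types (0 to 3 receptors), 596 to 1904 between the Tgfbr2-/- cell types (1 to 5 receptors) and 14 to 407 in the interaction (0 or 1 receptor). Between the WT cell types Ccr9 was called without Tgfbr2-/- BM ILC2p experiment 1 replicate 1. The direction turned for Ccr9 in LP ILC2s in experiment 1 alone (−0.028) and without Tgfbr2-/- experiment 2 replicate 1 (−0.047; up to 0.65 without other libraries), for Ccr2 in LP ILC2s without WT experiment 1 replicate 2 (1.20; down to −1.55 without others), and for Cxcr6 between the Tgfbr2-/- cell types with ILC2 marker scaling (−0.70). The cause was not tested.

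Replicate numbers did not pair the libraries (correlations of deviations −0.045, −0.00723 and −0.0363). With the replicate block, 175 genes were called in BM ILC2p, Cxcr6 among them (adjusted p = 0.0364). Depth limits the low receptors: Cxcr5, with 4 counts in each BM ILC2p group, could not be compared there.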
